A study of Homo sapiens with 9 samples.

Results

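The kinases, phosphatases and transcription factors that bring a cell into mitosis were followed in 10 genes: AURKA, PLK1, TPX2, CDC25A, CDC25B, CDC25C, WEE1, PKMYT1, FOXM1 and MYBL2. They were taken by name, through their Ensembl identifiers, from the 58381 Ensembl genes listed for each library, by a rule with no threshold on a measured value, although the set was drawn up with earlier results of these data known. HK1 cells, an established line of human nasopharyngeal carcinoma, were transfected with siRNA at 100 nM and their RNA was sequenced after 48 h. The 9 libraries form 3 groups of 3: E2F1 siRNA, E2F3 siRNA, and a control siRNA that targets no gene. E2F1 and E2F3 are transcription factors that are bound by the retinoblastoma protein and switch on genes for S phase. The labels name 1 siRNA treatment per target, without its sequence, and leave it unsaid if the 3 replicates were grown separately, so the p-values cover the spread between these libraries and no more.

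Entry into mitosis is set by CDK1 bound to cyclin B. WEE1 and PKMYT1 (also called MYT1) hold that complex off by phosphorylating CDK1, and the CDC25 phosphatases take those phosphates away. Aurora A, the product of AURKA, is activated by TPX2 on spindle microtubules and by Bora in the cytoplasm, and with Bora it switches on PLK1, which in turn activates CDC25C and marks WEE1 for destruction. FOXM1 and B-MYB, the product of MYBL2, are the transcription factors of this step: B-MYB joins the MuvB complex in S phase, FOXM1 follows in G2, and together they drive genes whose promoters carry a CHR element (cell cycle genes homology region), often beside CCAAT boxes. CDC25A and MYBL2 are textbook E2F genes of late G1 and S phase.

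Promoter windows of 300 bases, from 250 before a transcript start to 50 after it, were found in RefSeq (GRCh38.p14) for 5 of the 10 genes: PLK1, CDC25A, CDC25B, CDC25C and MYBL2. The 4 below are shown as examples of each motif, and PLK1, CDC25A and MYBL2 have 1 window each. PLK1 is at chr16:23678639-23678938 on the plus strand, CDC25C at chr5:138331828-138332127 on the minus strand, CDC25A at chr3:48188368-48188667 on the minus strand and MYBL2 at chr20:43666864-43667163 on the plus strand. CDC25C has 4 windows in RefSeq, and the one printed holds the most matches. A second CDC25C window that overlaps it also holds CHR letters, while the other 2 hold an E2F word and neither CHR letters nor a CCAAT box. Of the 4 windows of CDC25B, 2 hold E2F words without CHR letters, 1 holds CHR letters and a CCAAT box, and 1 holds none of the motifs. Each is written 5′ to 3′ on the strand of its gene, and capitals mark matches to the CHR element, the CCAAT box or an E2F site.
PLK1: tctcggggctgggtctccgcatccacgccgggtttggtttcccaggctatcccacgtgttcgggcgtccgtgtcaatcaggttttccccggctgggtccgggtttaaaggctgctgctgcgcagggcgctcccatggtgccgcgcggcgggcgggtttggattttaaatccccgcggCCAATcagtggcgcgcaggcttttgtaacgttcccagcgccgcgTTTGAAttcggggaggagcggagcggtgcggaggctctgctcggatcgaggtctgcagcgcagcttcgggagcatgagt
CDC25C: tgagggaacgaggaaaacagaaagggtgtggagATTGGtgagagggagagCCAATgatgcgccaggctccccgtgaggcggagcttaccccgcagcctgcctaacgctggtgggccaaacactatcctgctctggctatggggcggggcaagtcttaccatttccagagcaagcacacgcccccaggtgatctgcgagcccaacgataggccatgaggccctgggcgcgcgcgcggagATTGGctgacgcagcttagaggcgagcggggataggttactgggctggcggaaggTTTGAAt
CDC25A: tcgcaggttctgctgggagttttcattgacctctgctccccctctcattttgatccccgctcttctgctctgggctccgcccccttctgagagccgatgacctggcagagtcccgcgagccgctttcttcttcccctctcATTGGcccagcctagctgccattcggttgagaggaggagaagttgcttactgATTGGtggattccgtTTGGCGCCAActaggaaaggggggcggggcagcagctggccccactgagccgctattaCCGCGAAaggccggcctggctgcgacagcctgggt
MYBL2: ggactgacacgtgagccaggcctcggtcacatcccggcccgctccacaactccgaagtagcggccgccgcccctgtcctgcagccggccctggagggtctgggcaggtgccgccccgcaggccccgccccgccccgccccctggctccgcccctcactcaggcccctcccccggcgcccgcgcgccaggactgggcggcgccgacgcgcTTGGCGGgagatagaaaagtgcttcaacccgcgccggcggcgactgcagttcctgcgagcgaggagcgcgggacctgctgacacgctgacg

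The motifs were searched on both strands as TTTGAA or TTCGAA for the CHR element, CCAAT for the CCAAT box, and TTNNCGN, with C or G at each N, for E2F. Of all 35116 such windows in RefSeq, 16.4% hold the CHR letters, 34.6% a CCAAT box, 23.7% an E2F word, and 6.4% both CHR letters and a CCAAT box. PLK1 has CHR letters starting 29 bases before the start and a CCAAT box 73 bases before it, and no E2F word. The CDC25C window has CHR letters at base 44 after the start and CCAAT boxes 217, 200 and 12 bases before it. CDC25A has 3 E2F matches and no CHR letters: a pair that overlap each other, beginning 43 and 40 bases before the start, and a further one at base 16 after it. It also has CCAAT boxes in the opposite orientation 110 and 58 bases before the start. MYBL2 has a single match, to the E2F word TTGGCGG, 41 bases before the start. These are matches of letters, and binding was not measured.

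Levels are FPKM (fragments per kilobase of a gene's transcript, with library size scaled out), which allow genes to be compared per length. Changes are log2 differences of FPKM + 1 from a limma fit over 13777 genes (1 FPKM or more in 3 or more libraries), and a gene was called at a Benjamini-Hochberg adjusted p under 0.05 over all of them. All 10 genes were tested, and the lowest value of any of them in any library was 8.38 FPKM. Absolute depth was not determined. Relative to control replicate 1, the depth read from steps in the values of short single-exon genes was 0.88 to 1.14 after E2F1 siRNA, 0.96 to 0.97 after E2F3 siRNA and 0.83 to 1.19 in the control libraries. Mitochondrial genes held 14.03 to 15.29% of the FPKM after E2F1 siRNA, 16.43 to 17.08% after E2F3 siRNA and 15.65 to 16.5% in the control libraries.

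Squamous epithelial markers were all present. The summed level of the 7 (KRT5, KRT6A, KRT14, KRT17, TP63, EPCAM and CDH1) was 941 to 1009 FPKM after E2F1 siRNA, 855 to 940.3 FPKM after E2F3 siRNA and 1450 to 1489 FPKM in the control libraries, so the sum was lower in both knockdowns. KRT17, the largest part of it, was at 387 to 426, 349 to 401 and 740 to 810 FPKM in the same order. EPCAM, a general epithelial marker, was not lower, at 179 to 203, 167 to 188 and 170 to 182 FPKM. Each of the others was lower in every knockdown library than in any control library. Of 13 markers of leukocytes, endothelium and fibroblasts, 11 stayed under 1.5 FPKM in every library, while CD68 was at 16.8 to 19.7 FPKM over all libraries. The other exception, COL1A1, was at 16.4 to 18.7 FPKM after E2F1 siRNA, 12.4 to 14.8 FPKM after E2F3 siRNA and 12.3 to 13.5 FPKM in the control libraries. The summed leukocyte list was at 17.4 to 18.8 FPKM after E2F1 siRNA, 17.1 to 20.1 FPKM after E2F3 siRNA and 17.5 to 19.8 FPKM in the control libraries. The fibroblast list was at 17.4 to 20.3 FPKM after E2F1 siRNA, 14.2 to 16.1 FPKM after E2F3 siRNA and 13.6 to 14.8 FPKM in the control libraries, and the endothelial list stayed under 2 FPKM throughout. No marker was at 0 in every library. The part of these markers in the results below was not tested.

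Each siRNA lowered its target. E2F1 was at 7.17, 7.95 and 7.33 FPKM after E2F1 siRNA, 21.2, 23.0 and 21.0 FPKM after E2F3 siRNA, and 19.9, 19.5 and 20.2 FPKM in the control libraries, a fall of log2 -1.30 after its own siRNA (SE 0.06, limma adjusted p = 3.71e-07). E2F3 was at 29.2, 27.8 and 29.2 FPKM after E2F1 siRNA, 12.6, 10.5 and 11.0 FPKM after E2F3 siRNA, and 24.7, 27.2 and 24.4 FPKM in the control libraries, a fall of log2 -1.10 after its own siRNA (SE 0.07, limma adjusted p = 3.58e-06). Neither transcript was removed: the lowered groups stood well above zero and apart from the other libraries.

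AURKA and CDC25A were called in both comparisons with control, AURKA in opposite directions. After E2F1 siRNA, 6 of the 10 were higher than in the control libraries (AURKA, TPX2, PLK1, CDC25A, CDC25C and FOXM1), WEE1 was lower, and CDC25B, PKMYT1 and MYBL2 were not called. Over all genes tested, 37.8% were called in this comparison, 20.5% higher and 17.3% lower. After E2F3 siRNA, 4 of the 10 were lower (AURKA, CDC25B, PKMYT1 and MYBL2), CDC25A was higher, and TPX2, PLK1, CDC25C, WEE1 and FOXM1 were not called. Over all genes tested, 37.6% were called, 21.1% higher and 16.4% lower. These splits depend on scaling. As deposited, 2830 genes were higher and 2380 lower after E2F1 siRNA, against 2058 and 2528 with upper-quartile scaling. After E2F3 siRNA 2913 were higher and 2266 lower as deposited, against 2258 and 2792 with RLE scaling.

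Set against each other, the knockdowns differed in all 10 genes as deposited. CDC25A lost its call with upper-quartile scaling and without E2F1 siRNA replicate 1 or 3 or E2F3 siRNA replicate 3, which left 9. AURKA, TPX2, PLK1, CDC25A, CDC25B, CDC25C, PKMYT1, FOXM1 and MYBL2 were lower after E2F3 siRNA than after E2F1 siRNA, and WEE1 was higher. Over all genes tested, 45.5% were called between the knockdowns, 23.5% higher and 22.0% lower after E2F3 siRNA. With RLE scaling 2848 were higher and 3455 lower, and with upper-quartile scaling 3566 were higher and 2288 lower. The median log2 change of the 10 genes was 0.28 after E2F1 siRNA, -0.14 after E2F3 siRNA and -0.52 between E2F3 and E2F1 siRNA, beside 0.03, 0.04 and 0.02 over all genes tested. The comparisons of each knockdown with control use the same 3 control libraries. In bulk RNA, a change in the share of cells in G2 or mitosis and a change in the RNA per cell cannot be told apart.

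**Figure D1:**
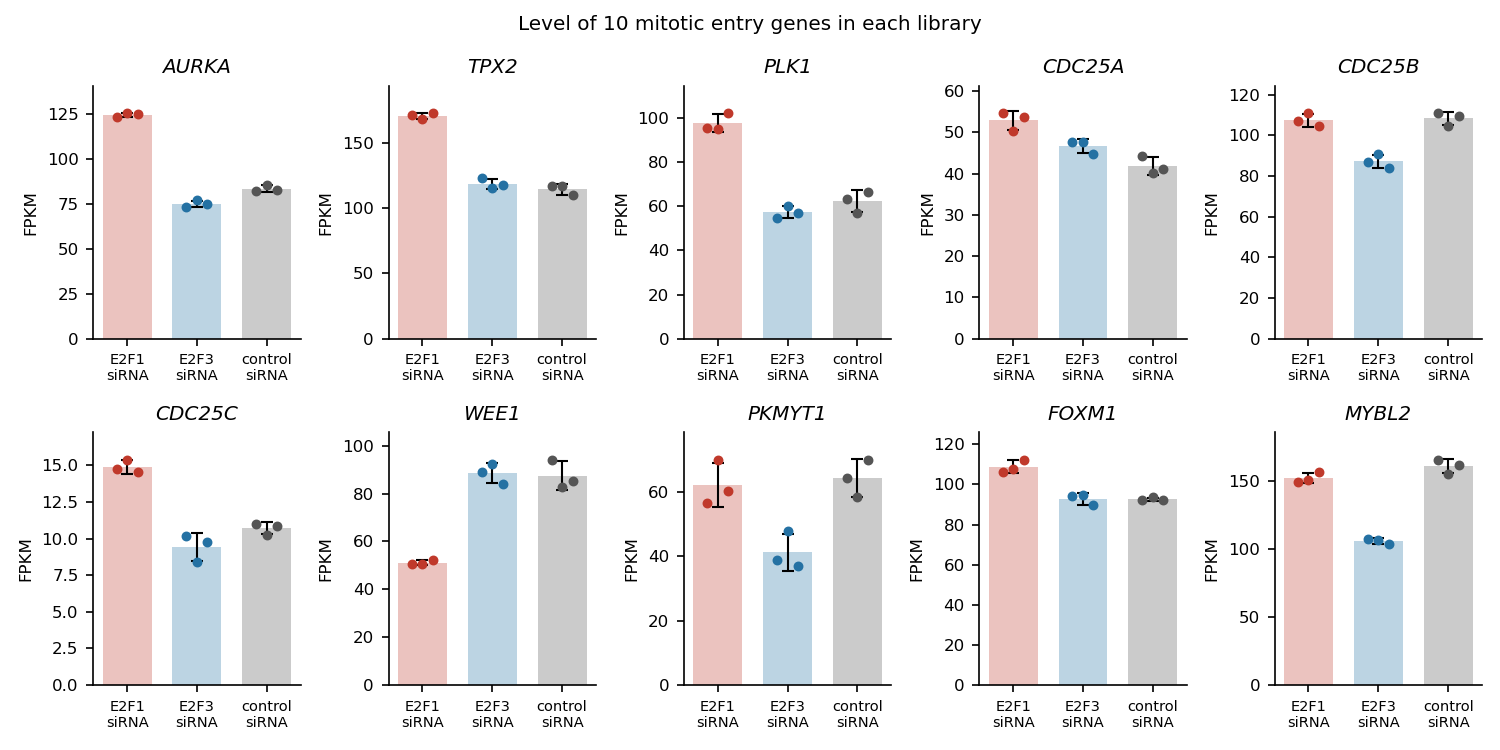
FPKM of the 10 genes, one panel each with its own axis from 0, in the 3 libraries of each group (points), with the mean (bar) and SD (line); E2F1 siRNA is red, E2F3 siRNA blue and control siRNA grey. AURKA, TPX2, PLK1 and CDC25C stand highest after E2F1 siRNA, WEE1 stands lowest there, and MYBL2, PKMYT1 and CDC25B stand lowest after E2F3 siRNA.

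The Aurora A and Polo kinases and their activator were among the genes that rose most after E2F1 siRNA, by about the same factor. AURKA (ENSG00000087586.17, chr20:56369389-56392337, minus strand) encodes the kinase that matures centrosomes and builds the spindle. It was at 123, 126 and 125 FPKM after E2F1 siRNA, 73.1, 76.9 and 74.8 FPKM after E2F3 siRNA, and 82.2, 85.5 and 82.8 FPKM in the control libraries. The 3 groups did not overlap, with E2F1 siRNA on top and E2F3 siRNA at the bottom. AURKA rose 1.49-fold after E2F1 siRNA (log2 0.57, SE 0.04, limma adjusted p = 2.63e-06), and 4.16% of all tested genes rose more. After E2F3 siRNA it fell to 0.898 times the control mean (log2 -0.15, SE 0.04, limma adjusted p = 0.00835), a call that was lost with upper-quartile scaling (log2 -0.14, limma adjusted p = 0.0623). Its mean after E2F3 siRNA was 0.602 times that after E2F1 siRNA (log2 -0.73, SE 0.04, limma adjusted p = 4.18e-07). Reads from the processed copies AURKAP1 and AURKAP2 could be shared with AURKA. The copies were listed at no more than 0.52 and 0 FPKM, and the effect of shared reads on AURKA was not tested.

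TPX2 (ENSG00000088325.15, chr20:31739271-31801805, plus strand) encodes the microtubule protein that binds Aurora A, protects its active form and carries it to the spindle. It was at 171, 168 and 173 FPKM after E2F1 siRNA, 123, 116 and 118 FPKM after E2F3 siRNA, and 117, 117 and 109.8 FPKM in the control libraries. All 3 E2F1 siRNA libraries were above the other 6, and the E2F3 siRNA and control libraries overlapped. TPX2 rose 1.49-fold after E2F1 siRNA (log2 0.58, SE 0.04, limma adjusted p = 4.34e-06). The change after E2F3 siRNA was not called (log2 0.05, SE 0.04, limma adjusted p = 0.316). Between the knockdowns it was at 0.695 times after E2F3 siRNA relative to E2F1 siRNA (log2 -0.52, SE 0.04, limma adjusted p = 5.45e-06). The ratio of TPX2 to AURKA was 1.37 ± 0.0275 after E2F1 siRNA, 1.59 ± 0.0898 after E2F3 siRNA and 1.37 ± 0.0475 in the control libraries (SD, n = 3 each), so the pair kept its balance in the first knockdown while in the second the ratio stood above control in every library.

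PLK1 (ENSG00000166851.14, chr16:23677656-23690367, plus strand) encodes the Polo-like kinase whose promoter, with CHR letters and a CCAAT box, is printed above. It was at 95.8, 95.1 and 102 FPKM after E2F1 siRNA, 54.7, 60.3 and 57.2 FPKM after E2F3 siRNA, and 63.4, 57.0 and 66.8 FPKM in the control libraries. The E2F1 siRNA libraries stood apart on top, and E2F3 siRNA replicate 2 and 3 lay within the control range, which control replicate 2 opens at the bottom. PLK1 rose 1.57-fold after E2F1 siRNA (log2 0.64, SE 0.06, limma adjusted p = 4.02e-05), and 2.93% of all tested genes rose more. It was not called after E2F3 siRNA (log2 -0.12, SE 0.06, limma adjusted p = 0.175). Without control replicate 2 that change was called (log2 -0.18, limma adjusted p = 0.0417). Between the knockdowns PLK1 after E2F3 siRNA was at 0.587 times its mean after E2F1 siRNA (log2 -0.76, SE 0.06, limma adjusted p = 1.01e-05).

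The 3 CDC25 phosphatases behaved differently from each other. CDC25A (ENSG00000164045.11, chr3:48157146-48188402, minus strand), which also acts on CDK2 at the start of S phase, was at 54.7, 50.4 and 53.7 FPKM after E2F1 siRNA, 47.7, 47.7 and 44.8 FPKM after E2F3 siRNA, and 44.2, 40.1 and 41.1 FPKM in the control libraries. The groups did not overlap, in the order E2F1 siRNA, E2F3 siRNA, control. CDC25A rose 1.27-fold after E2F1 siRNA (log2 0.33, SE 0.05, limma adjusted p = 0.000876) and by less after E2F3 siRNA (log2 0.16, SE 0.05, limma adjusted p = 0.0412). The knockdowns differed by log2 -0.17 (SE 0.05, limma adjusted p = 0.0231).

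The rise of CDC25A after E2F3 siRNA stood close to the threshold. Leaving out 1 library at a time, it was lost without control replicate 2 (log2 0.13, limma adjusted p = 0.126) or 3 (log2 0.15, limma adjusted p = 0.111). It was also lost without E2F3 siRNA replicate 1 (log2 0.14, limma adjusted p = 0.109) or 2 (log2 0.14, limma adjusted p = 0.102), and without E2F1 siRNA replicate 1 (limma adjusted p = 0.0508) or 3 (limma adjusted p = 0.0549), which enter only through the shared spread. RLE scaling gave log2 0.10 (limma adjusted p = 0.15). The call was also lost with upper-quartile scaling (limma adjusted p = 0.061) and with no filter (limma adjusted p = 0.073). So it was with only the 6 libraries compared (limma adjusted p = 0.0581) and with GC content and length corrected for (limma adjusted p = 0.0557). The difference between the knockdowns was lost without E2F1 siRNA replicate 1 (log2 -0.15, limma adjusted p = 0.0807) or 3 (log2 -0.16, limma adjusted p = 0.0668), without E2F3 siRNA replicate 3 (log2 -0.14, limma adjusted p = 0.0821) and with upper-quartile scaling (log2 -0.12, limma adjusted p = 0.159).

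CDC25B (ENSG00000101224.17, chr20:3786772-3806121, plus strand), which starts CDK1 activation at the centrosome, was at 107, 111 and 104 FPKM after E2F1 siRNA, 87.1, 90.6 and 84.1 FPKM after E2F3 siRNA, and 111, 105 and 109.5 FPKM in the control libraries. All 3 E2F3 siRNA libraries were below the other 6, and the E2F1 siRNA and control libraries overlapped. CDC25B fell to 0.805 times control after E2F3 siRNA (log2 -0.31, SE 0.04, limma adjusted p = 0.000396). After E2F1 siRNA CDC25B was not called (log2 -0.01, SE 0.04, limma adjusted p = 0.834). Between the knockdowns it differed by log2 -0.30 (SE 0.04, limma adjusted p = 0.000392).

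CDC25C (ENSG00000158402.18, chr5:138285265-138338355, minus strand), the form that PLK1 activates and 14-3-3 proteins hold in the cytoplasm, had the lowest level of the 10 genes. It was at 14.7, 15.4 and 14.5 FPKM after E2F1 siRNA, 10.15, 8.38 and 9.79 FPKM after E2F3 siRNA, and 11.0, 10.24 and 10.9 FPKM in the control libraries. The E2F1 siRNA libraries were the 3 highest, and the highest E2F3 siRNA library was just under the lowest control library. CDC25C rose 1.39-fold after E2F1 siRNA (log2 0.44, SE 0.08, limma adjusted p = 0.00126). After E2F3 siRNA it was not called (log2 -0.17, SE 0.08, limma adjusted p = 0.106), but it was with RLE scaling (log2 -0.22, limma adjusted p = 0.0419) and with GC content and length corrected for (log2 -0.22, limma adjusted p = 0.0337). Between the knockdowns it was at 0.634 times (log2 -0.61, SE 0.08, limma adjusted p = 0.000138). CDC25C shares 293 of its 3338 annotated exon bases with FAM53C on the other strand, which averaged 34.8 FPKM after E2F1 siRNA, 30.9 FPKM after E2F3 siRNA and 28.8 FPKM in the control libraries. The strand setting of the counting is not given in the sources used here, so reads of such overlapping genes cannot be told apart.

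Of the summed CDC25 FPKM, CDC25B held the largest share in every library: 61.3 ± 1.26% after E2F1 siRNA, 60.8 ± 0.855% after E2F3 siRNA and 67.4 ± 0.536% in the control libraries (SD, n = 3 each). CDC25A held 30.2 ± 1.45% after E2F1 siRNA, 32.6 ± 0.323% after E2F3 siRNA and 26.0 ± 0.587% in the control libraries. CDC25C held 8.49 ± 0.199% after E2F1 siRNA, 6.59 ± 0.761% after E2F3 siRNA and 6.65 ± 0.0729% in the control libraries. The family thus moved away from CDC25B in both knockdowns, through more CDC25A and CDC25C in the E2F1 siRNA libraries and mainly through less CDC25B in the E2F3 siRNA libraries.

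The kinases that oppose CDC25 were each called in only one of the comparisons with control. WEE1 (ENSG00000166483.10, chr11:9573681-9593457, plus strand), the nuclear kinase, was at 50.7, 50.5 and 52.5 FPKM after E2F1 siRNA, 89.0, 92.4 and 84.2 FPKM after E2F3 siRNA, and 94.2, 82.7 and 85.2 FPKM in the control libraries. All 3 E2F1 siRNA libraries were far below the other 6, which overlapped. WEE1 fell to 0.586 times control after E2F1 siRNA (log2 -0.76, SE 0.06, limma adjusted p = 6.49e-06), and 3.24% of all tested genes fell more. After E2F3 siRNA WEE1 was not called (log2 0.02, SE 0.06, limma adjusted p = 0.804). WEE1 after E2F3 siRNA was at 1.73 times its mean after E2F1 siRNA (log2 0.78, SE 0.06, limma adjusted p = 3.72e-06).

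PKMYT1 (ENSG00000127564.16, chr16:2968024-2980539, minus strand), the membrane-bound kinase, had the widest spread between libraries of one group. It was at 56.7, 70.0 and 60.3 FPKM after E2F1 siRNA, 38.9, 47.9 and 37.1 FPKM after E2F3 siRNA, and 64.4, 58.6 and 70.2 FPKM in the control libraries. All 3 E2F3 siRNA libraries were below the other 6, and the E2F1 siRNA and control libraries overlapped. PKMYT1 fell to 0.641 times control after E2F3 siRNA (log2 -0.63, SE 0.11, limma adjusted p = 0.00143), and 4.57% of all tested genes fell more. It was not called after E2F1 siRNA (log2 -0.05, SE 0.11, limma adjusted p = 0.758). Between the knockdowns it differed by log2 -0.59 (SE 0.11, limma adjusted p = 0.0017). It shares 1233 of its 5034 annotated exon bases with PAQR4 and 360 with KREMEN2 on the other strand. PAQR4 averaged 26.1 FPKM after E2F1 siRNA, 21.0 FPKM after E2F3 siRNA and 22.9 FPKM in the control libraries, and KREMEN2 stayed under 5 FPKM in all group means.

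With WEE1 low in one knockdown and PKMYT1 low in the other, the ratio of WEE1 to PKMYT1 moved in opposite directions. It was 0.894, 0.721 and 0.87 after E2F1 siRNA, 2.29, 1.93 and 2.27 after E2F3 siRNA, and 1.46, 1.41 and 1.21 in the control libraries. PKMYT1 was the more abundant of the pair in each E2F1 siRNA library and WEE1 in each of the other 6. The summed level of both kinases was 114 ± 6.58 FPKM after E2F1 siRNA, 130 ± 9.64 FPKM after E2F3 siRNA and 152 ± 9.23 FPKM in the control libraries (SD, n = 3 each).

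The summed kinases over the summed CDC25 phosphatases gave 0.609, 0.682 and 0.653 after E2F1 siRNA, 0.882, 0.956 and 0.875 after E2F3 siRNA, and 0.955, 0.911 and 0.962 in the control libraries. The E2F1 siRNA libraries were the 3 lowest, and the E2F3 siRNA and control libraries overlapped. The CDC25 sum behind it was 175 ± 2.21 FPKM after E2F1 siRNA, 143 ± 4.23 FPKM after E2F3 siRNA and 161 ± 5.59 FPKM in the control libraries. These ratios concern transcripts, and neither protein nor phosphorylation of CDK1 was measured.

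**Figure D2:**
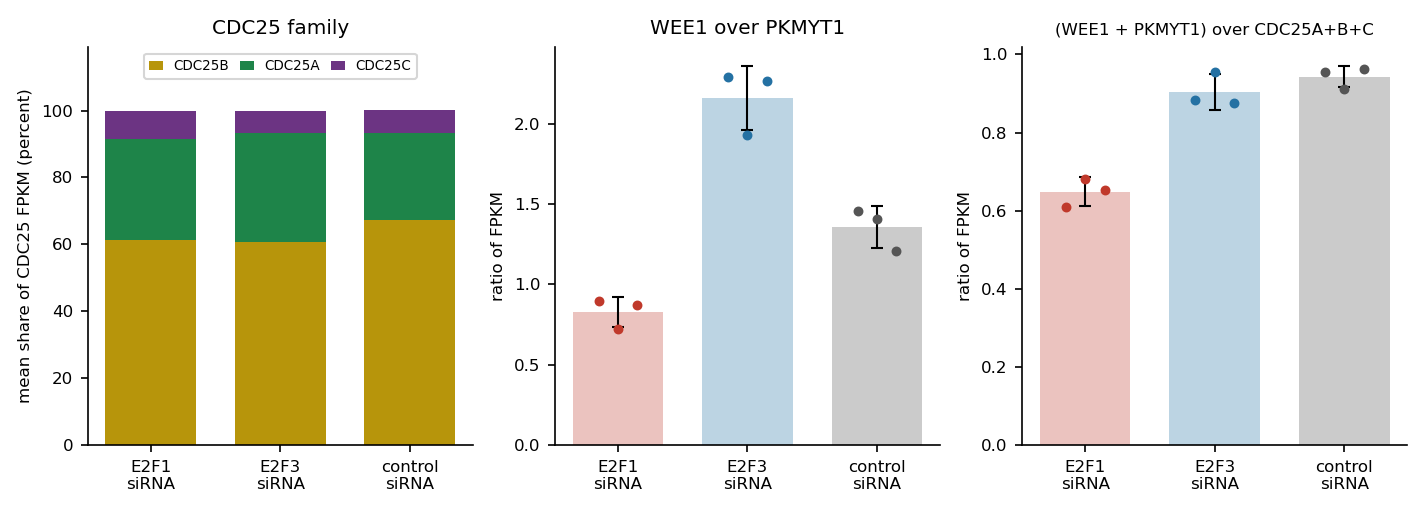
Left, the mean share of each CDC25 gene in the summed CDC25 FPKM (percent); centre, the ratio of WEE1 to PKMYT1 FPKM; right, the ratio of summed WEE1 and PKMYT1 to summed CDC25A, CDC25B and CDC25C FPKM, with points for libraries, bars for means and lines for SD. The ratio of WEE1 to PKMYT1 averages 0.829 after E2F1 siRNA, 2.16 after E2F3 siRNA and 1.36 in the control libraries, and the ratio on the right is lowest after E2F1 siRNA.

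The transcription factors of the set also divided. FOXM1 (ENSG00000111206.12, chr12:2857681-2877155, minus strand) was at 106, 108 and 112 FPKM after E2F1 siRNA, 94.3, 94.7 and 89.5 FPKM after E2F3 siRNA, and 92.3, 93.6 and 92.2 FPKM in the control libraries. The 3 E2F1 siRNA libraries were the highest, and the E2F3 siRNA libraries spanned the control range. FOXM1 rose 1.17-fold after E2F1 siRNA (log2 0.23, SE 0.04, limma adjusted p = 0.00126), a small change that 22.6% of all tested genes exceeded. It was not called after E2F3 siRNA (log2 0.00, SE 0.04, limma adjusted p = 0.973). The knockdowns differed by log2 -0.23 (SE 0.04, limma adjusted p = 0.00109). FOXM1 shares 781 of its 4899 annotated exon bases with ITFG2 on the other strand, which averaged 20.3 FPKM after E2F1 siRNA, 17.8 FPKM after E2F3 siRNA and 14.9 FPKM in the control libraries.

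MYBL2 (ENSG00000101057.15, chr20:43667019-43716496, plus strand), whose promoter window holds the single E2F word shown above, was at 149, 151 and 156 FPKM after E2F1 siRNA, 107, 106 and 103 FPKM after E2F3 siRNA, and 165, 155 and 161 FPKM in the control libraries. All 3 E2F3 siRNA libraries were far below the other 6, and the highest E2F1 siRNA library lay above the lowest control library. MYBL2 fell to 0.657 times control after E2F3 siRNA (log2 -0.60, SE 0.04, limma adjusted p = 3.14e-06), and 5.12% of all tested genes fell more. It was not called after E2F1 siRNA (log2 -0.08, SE 0.04, limma adjusted p = 0.126). Between the knockdowns it was at 0.696 times (log2 -0.52, SE 0.04, limma adjusted p = 4.24e-06). The ratio of FOXM1 to MYBL2 was 0.717 ± 0.00372 after E2F1 siRNA, 0.88 ± 0.0128 after E2F3 siRNA and 0.578 ± 0.0238 in the control libraries (SD, n = 3 each), so it was above control in both. In the first, FOXM1 was higher and MYBL2, though not called, averaged 0.945 times control. In the second, MYBL2 was lower.

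**Figure D3:**
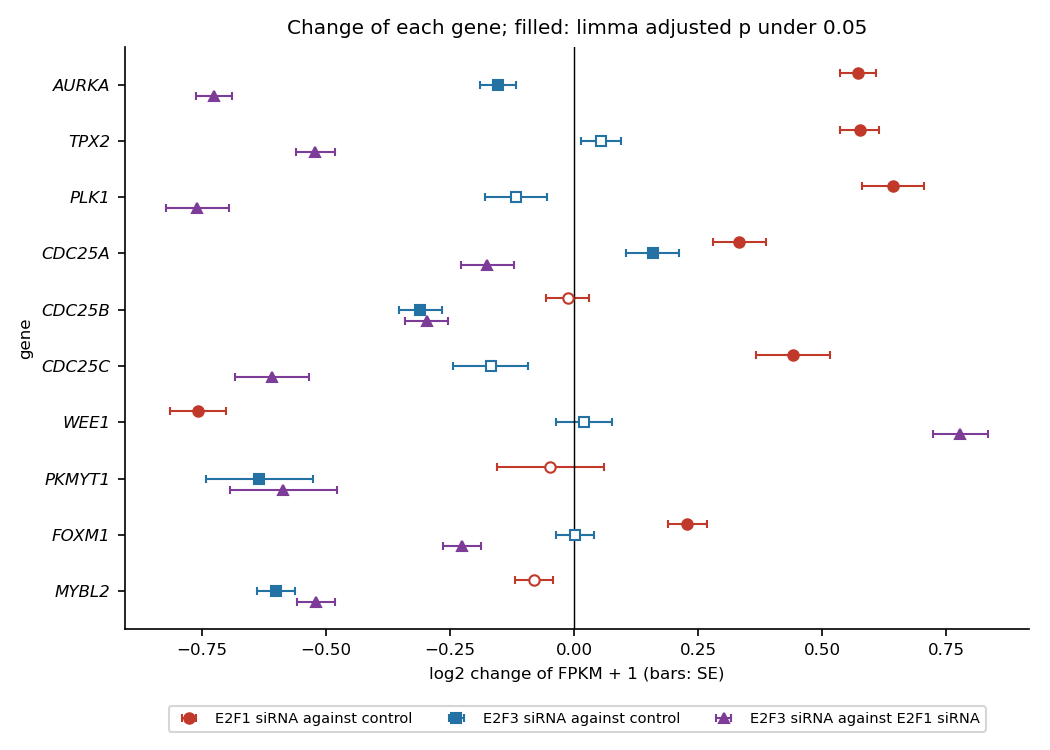
Log2 change of FPKM + 1 with its SE for each gene after E2F1 siRNA against control (red circles), after E2F3 siRNA against control (blue squares) and after E2F3 siRNA against E2F1 siRNA (purple triangles); filled symbols have a limma adjusted p under 0.05. WEE1 lies at -0.76 and 0.78 in the first and the third comparison, and the other 9 genes lie left of 0 in the third.

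The levels of the 10 genes spread over more than an order of magnitude in the control libraries. MYBL2 was highest at 161 ± 5.30 FPKM, above 95.6% of all tested genes, and CDC25C lowest at 10.7 ± 0.405 FPKM, above 45.0% (SD, n = 3 each). Between them, in falling order, came TPX2, CDC25B, FOXM1, WEE1, AURKA, PKMYT1, PLK1 and CDC25A. Neighbours in that order whose libraries overlapped were TPX2 with CDC25B, FOXM1 with WEE1, WEE1 with AURKA, and PKMYT1 with PLK1. After E2F1 siRNA the order was TPX2, MYBL2, AURKA, FOXM1, CDC25B, PLK1, PKMYT1, CDC25A, WEE1 and CDC25C, with overlap of FOXM1 with CDC25B and of CDC25A with WEE1. After E2F3 siRNA it was TPX2, MYBL2, FOXM1, WEE1, CDC25B, AURKA, PLK1, CDC25A, PKMYT1 and CDC25C, with overlap of FOXM1 with WEE1, WEE1 with CDC25B, and CDC25A with PKMYT1. TPX2 took the top place from MYBL2 in both knockdowns.

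For each gene the tested gene with the closest profile was the one with the smallest root mean square difference in log2(FPKM + 1), centred on control, over the 9 libraries and among 9909 genes with a mean of at least 5 FPKM. FOXM1 had the closest match, METTL3 (0.0287), followed by CDC25B with FAM129B (0.031), TPX2 with HMGB2 (0.038), CDC25A with EXOC7 (0.0424), MYBL2 with MRPS30 (0.0444), AURKA with TOR3A (0.0465) and WEE1 with COLGALT1 (0.0493). The matches were looser for CDC25C with PAF1 (0.0628), PLK1 with TTLL12 (0.0704) and PKMYT1 with BCKDHA (0.082). None of the 10 genes was the closest match of another. With only 1 match kept among 9909 candidates, this does not show if the 10 genes share a profile. The difference also grows with the spread between libraries, which was widest for PKMYT1.

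Among 35 partners of these genes, CDK1 and the B cyclins did not move alike. The list holds CDK1, its cyclins and CKS subunits, partners of Aurora A and PLK1, the Greatwall (MASTL) pathway that restrains the phosphatase PP2A, checkpoint kinases, ubiquitin ligase subunits and 14-3-3 proteins. After E2F1 siRNA 13 were higher, 8 lower and 14 not called, with a median log2 change of 0.09. Of all genes tested, 20.5% were higher and 17.3% lower, with a median of 0.03. CCNB1, cyclin B1, averaged 186 ± 5.33 FPKM after E2F1 siRNA and 131 ± 3.86 FPKM in the control libraries (log2 0.50, SE 0.04, limma adjusted p = 1.12e-05). CCNB2, cyclin B2, averaged 77.3 ± 1.47 FPKM after E2F1 siRNA and 52.9 ± 0.66 FPKM in the control libraries (log2 0.54, SE 0.04, limma adjusted p = 3.90e-06). CDK1 itself was at 77.3 ± 4.57 FPKM after E2F1 siRNA and 89.0 ± 4.66 FPKM in the control libraries (log2 -0.20, SE 0.06, limma adjusted p = 0.0245). That call was lost without control replicate 1 (limma adjusted p = 0.0526) or 2 (log2 -0.16, limma adjusted p = 0.0873), and without E2F1 siRNA replicate 1 (limma adjusted p = 0.0565) or 2 (log2 -0.16, limma adjusted p = 0.0858).

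The rises with the smallest adjusted p among the partners after E2F1 siRNA, beside CCNB2, were in ENSA, a PP2A inhibitor once phosphorylated by MASTL, and TACC3, a spindle substrate of Aurora A. ENSA averaged 186 ± 4.64 FPKM after E2F1 siRNA and 95.4 ± 1.99 FPKM in the control libraries (log2 0.96, limma adjusted p = 7.27e-07), and TACC3 averaged 72.1 ± 1.31 FPKM after E2F1 siRNA and 41.6 ± 2.16 FPKM in the control libraries (log2 0.78, limma adjusted p = 5.55e-06). BORA, the cytoplasmic activator of Aurora A, also rose (22.6 ± 0.656 FPKM after E2F1 siRNA and 16.1 ± 2.84 FPKM in the control libraries, log2 0.48, limma adjusted p = 0.00524). The falls with the smallest adjusted p were in NEK2, a centrosome kinase (log2 -0.51, limma adjusted p = 2.47e-05), CKS1B, a CDK subunit (log2 -0.50, limma adjusted p = 6.09e-05), and ARPP19, the close relative of ENSA (log2 -0.83, limma adjusted p = 6.94e-05). By size, the fall of the checkpoint kinase CHEK2 lay between ARPP19 and NEK2, with 15.4 ± 0.0577 FPKM after E2F1 siRNA and 24.3 ± 2.95 FPKM in the control libraries (log2 -0.61, limma adjusted p = 0.000191). MASTL (log2 -0.05, limma adjusted p = 0.629) and the checkpoint kinase CHEK1 (log2 0.05, limma adjusted p = 0.618) were not called.

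After E2F3 siRNA 11 partners were higher, 8 lower and 16 not called, with a median of -0.04. The balance turned with RLE scaling, to 8 higher and 12 lower, and with GC content and length corrected for, to 11 higher and 13 lower. As deposited, 21.1% of all genes tested were higher and 16.4% lower, with a median of 0.04. BTRC, a subunit of the ubiquitin ligase that recognises WEE1 and CDC25A, fell to 2.50 ± 0.267 FPKM after E2F3 siRNA, against 6.70 ± 0.654 FPKM in the control libraries (log2 -1.14, SE 0.11, limma adjusted p = 3.53e-05). SFN, the 14-3-3 sigma protein, fell by 0.34 on the log2 scale (limma adjusted p = 0.000259). ENSA (log2 0.44, limma adjusted p = 0.000101), the 14-3-3 gene YWHAB (log2 0.28, limma adjusted p = 0.000261) and TACC3 (log2 0.34, limma adjusted p = 0.00121) were the higher partners with the smallest adjusted p. CHEK2 fell here too (log2 -0.35, limma adjusted p = 0.00563).

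CCNB2 also rose after E2F3 siRNA (log2 0.20, limma adjusted p = 0.00233), while CCNB1 just missed the threshold in the other direction (log2 -0.11, limma adjusted p = 0.0509). CCNB1 was called lower without E2F3 siRNA replicate 3 (log2 -0.14, limma adjusted p = 0.0394) and with RLE scaling (log2 -0.17, limma adjusted p = 0.0173). MASTL was called lower (log2 -0.25, limma adjusted p = 0.0308), but not without control replicate 2 (log2 -0.21, limma adjusted p = 0.1) or 3 (limma adjusted p = 0.0772), nor without E2F3 siRNA replicate 2 (log2 -0.23, limma adjusted p = 0.0832) or 3 (log2 -0.20, limma adjusted p = 0.102). With GC content and length corrected for, CCNB1 (log2 -0.17, limma adjusted p = 0.00618) and CDK1 (log2 -0.18, limma adjusted p = 0.0105) were called lower. As deposited, CDK1 (log2 -0.11, limma adjusted p = 0.16) and BORA (log2 -0.10, limma adjusted p = 0.491) were not called. CHEK1 (log2 0.11, limma adjusted p = 0.264) was called only when control replicate 1 was left out (log2 0.20, limma adjusted p = 0.0373). Between the knockdowns 8 partners were higher and 17 lower after E2F3 siRNA than after E2F1 siRNA, and 10 were not called. The shares of all genes tested were 23.5% higher and 22.0% lower.

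The MuvB core, the 5 proteins through which B-MYB and FOXM1 reach CHR promoters, had 4 genes higher and 1 lower after E2F1 siRNA. The shares of all genes tested were 20.5% higher and 17.3% lower. RBBP4, a histone-binding subunit, rose most clearly, to 197 ± 4.23 FPKM after E2F1 siRNA, against 140.0 ± 3.32 FPKM in the control libraries (log2 0.49, limma adjusted p = 5e-05), and LIN37 rose by log2 0.32 (limma adjusted p = 0.00501). LIN54, the subunit that reads the CHR letters (log2 0.23, limma adjusted p = 0.0293), and LIN9, which B-MYB binds (log2 0.21, limma adjusted p = 0.0408), were close to the threshold. LIN52 fell to 4.60 ± 0.519 FPKM after E2F1 siRNA, against 7.96 ± 1.55 FPKM in the control libraries (log2 -0.67, limma adjusted p = 0.00417). Only 3 of the 5 were called without control replicate 1, 2 or 3 or without E2F1 siRNA replicate 1, LIN54 and LIN9 being those lost (limma adjusted p 0.0501 to 0.103 for LIN54 and 0.0796 to 0.113 for LIN9). LIN9 was also lost without E2F1 siRNA replicate 3 (limma adjusted p = 0.105). After E2F3 siRNA RBBP4 alone was called, higher (log2 0.31, limma adjusted p = 0.00113), while 37.6% of all genes tested were called. Between the knockdowns 1 of the 5 was higher and 3 lower after E2F3 siRNA than after E2F1 siRNA, and 1 was not called. For all genes tested the shares were 23.5% higher and 22.0% lower.

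Of 26 G2/M genes that FOXM1 and B-MYB are known to drive, 22 were higher, 0 lower and 4 not called after E2F1 siRNA, with a median log2 change of 0.51. All genes tested had 20.5% higher and 17.3% lower, and a median of 0.03. The list was drawn up with earlier results of these data known, so its direction is not independent evidence. The 3 with the smallest p were MKI67, the proliferation marker Ki-67, PRC1, which bundles midzone microtubules, and CDKN3, a phosphatase of CDKs. MKI67 averaged 51.8 ± 0.866 FPKM after E2F1 siRNA and 31.5 ± 0.675 FPKM in the control libraries (log2 0.70, limma adjusted p = 1.60e-06). PRC1 averaged 134 ± 3.94 FPKM after E2F1 siRNA and 80.6 ± 2.14 FPKM in the control libraries (log2 0.73, limma adjusted p = 4.32e-06). CDKN3 averaged 64.5 ± 4.05 FPKM after E2F1 siRNA and 38.4 ± 0.703 FPKM in the control libraries (log2 0.73, limma adjusted p = 7.08e-06). This rise came with FOXM1 up 1.17-fold and MYBL2 not called.

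After E2F3 siRNA, with MYBL2 at 0.657 times control, the same 26 genes had 3 higher, 4 lower and 19 not called, and a median of 0.00. All genes tested had 37.6% called, 21.1% higher and 16.4% lower, and a median of 0.04. With RLE scaling the list had 3 higher and 5 lower, beside 2258 and 2792 of 13777 genes tested. With GC content and length corrected for it had 3 higher and 7 lower, beside 2701 and 2595 of 13764. Upper-quartile scaling gave 3 higher and 3 lower, beside 2770 and 1964 of 13777. As deposited, the called share of this list was no larger than that of all genes. The kinetochore protein CENPF (log2 0.62, limma adjusted p = 0.000572), PRC1 (log2 0.33, limma adjusted p = 0.000688) and survivin, BIRC5 (log2 0.31, limma adjusted p = 0.00906), were higher. TTK, the spindle checkpoint kinase (log2 -0.51, limma adjusted p = 3.59e-05), CDC20, an activator of the anaphase-promoting complex (log2 -0.31, limma adjusted p = 0.00166), and AURKB, Aurora B (log2 -0.23, limma adjusted p = 0.00411), were the lower ones with the smallest p. Between the knockdowns 21 of the 26 were lower after E2F3 siRNA than after E2F1 siRNA, 0 were higher and 5 were not called, with a median of -0.53. For all genes tested, 23.5% were higher and 22.0% lower, with a median of 0.02.

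A set of 24 G1/S genes, the class that E2F drives, served as the counterpart. After E2F1 siRNA 13 were higher, 4 lower and 7 not called (median 0.24), and after E2F3 siRNA 3 were higher, 10 lower and 11 not called (median -0.17). All genes tested had 20.5% higher and 17.3% lower after E2F1 siRNA (median 0.03). After E2F3 siRNA they had 21.1% higher and 16.4% lower (median 0.04). After E2F1 siRNA the helicase subunits MCM3 (log2 0.50, limma adjusted p = 6.66e-06) and MCM7 (log2 0.36, limma adjusted p = 1.44e-05) and the sliding clamp PCNA (log2 0.37, limma adjusted p = 9.15e-05) rose, while TYMS, thymidylate synthase (log2 -1.36, limma adjusted p = 8.66e-07), RRM2, of ribonucleotide reductase (log2 -0.68, limma adjusted p = 0.000107), and UHRF1, of DNA methylation maintenance (log2 -0.33, limma adjusted p = 0.000343), fell. After E2F3 siRNA UHRF1 (log2 -1.91, limma adjusted p = 7.44e-09), the helicase factor CDC45 (log2 -0.94, limma adjusted p = 1.44e-06) and cyclin E2, CCNE2 (log2 -0.85, limma adjusted p = 2.23e-06), fell.

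MCM7 rose slightly after E2F3 siRNA (log2 0.14, limma adjusted p = 0.0055), and so did MCM2 (log2 0.18, limma adjusted p = 0.029). Both calls were lost with RLE scaling (limma adjusted p = 0.0617 for MCM7 and 0.0987 for MCM2). MCM2 was also lost without control replicate 2 (log2 0.13, limma adjusted p = 0.0891) or E2F3 siRNA replicate 2 (limma adjusted p = 0.0866) or 3 (limma adjusted p = 0.0608). Between the knockdowns 2 G1/S genes were higher and 19 lower after E2F3 siRNA than after E2F1 siRNA, and 3 were not called. The shares of all genes tested were 23.5% higher and 22.0% lower. MYBL2 and CDC25A, the 2 genes of the set best known as E2F genes, did not fall together after E2F3 siRNA. MYBL2 was at log2 -0.60 and CDC25A at log2 0.16, a rise close to the threshold whose call was lost under several alternatives.

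**Figure D4:**
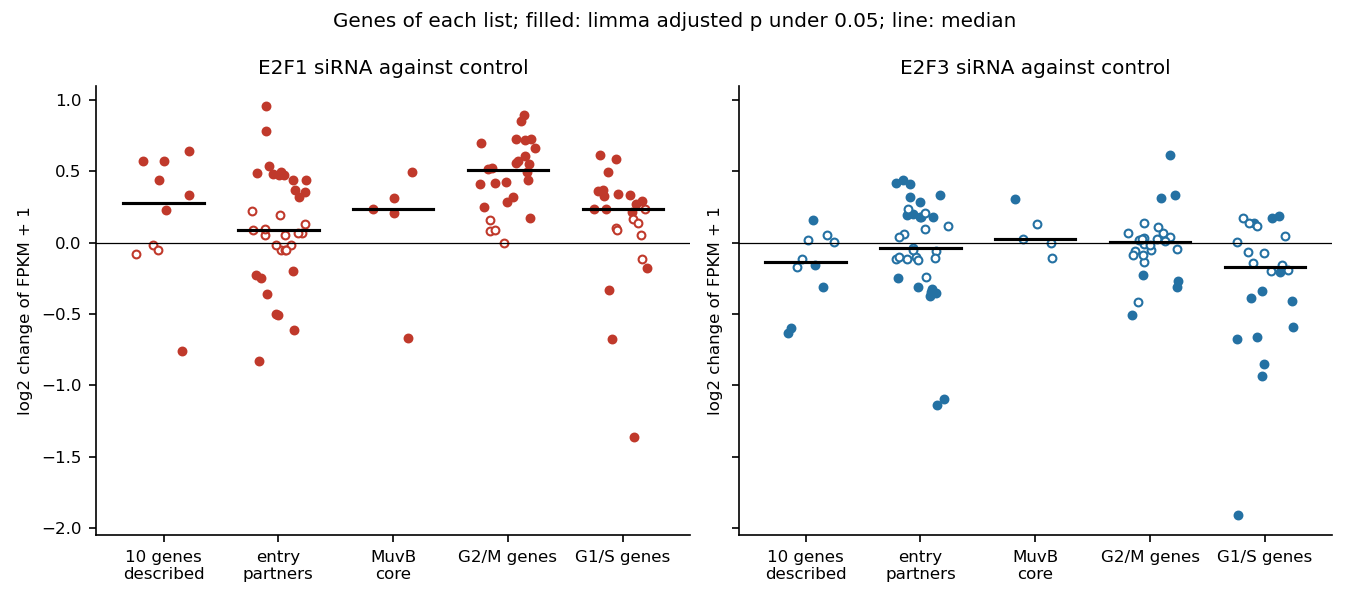
Log2 change of FPKM + 1 of every gene in the 10 genes described, 35 entry partners, 5 MuvB core genes, 26 G2/M genes and 24 G1/S genes, after E2F1 siRNA (left) and E2F3 siRNA (right) against the same control libraries; filled points have a limma adjusted p under 0.05, lines are medians and the sideways spread has no meaning. The G2/M genes lie mostly above 0 on the left with a median of 0.51 and around 0 on the right, and the G1/S genes have medians of 0.24 and -0.17.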

How the data were processed

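RNA of 9 HK1 libraries was sequenced. The submitters' processing notes name GRCh38, HISAT2, TopHat, HTSeq, DESeq and Trimmomatic, and no version, role or strand setting is given in the sources used here. The authors deposited FPKM per gene and library, per the file headers: 59107 entries, 58381 with an Ensembl identifier (58261 named from GENCODE 29), 726 other loci, and 12 text lines that were left out. From these, log2(FPKM + 1) of 13777 genes (1 FPKM or more in 3 or more libraries) entered one limma model (3.58.1 in R 4.3.3, with trend) with a mean per group. Contrasts were two-sided, adjusted by Benjamini-Hochberg over all genes at 0.05. The added 1 understates changes of low genes. Depth was read from FPKM steps in Python 3.11.15 with pandas 2.3.3. At most 3.45% of values above 0 were identical between a pair of libraries. Members and lists were chosen with earlier results of these data known. Named were all 10 members, E2F1, E2F3, of each list up to 3 called genes with the smallest p per direction and comparison with control, CDK1, CCNB1, CCNB2, BORA, MASTL and CHEK1, and the nearest profiles; CHEK2 and all MuvB genes were named after their values were seen. Some genes that fall under this rule are not reported here. Alternatives were another pseudocount, filter, scaling, threshold or empirical Bayes fit, only the libraries compared, a replicate block, leaving out each library and, chosen after seeing the data, correction for GC content and length (loess, span 0.3).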

Additional observations from a re-analysis of the deposited data

How the results depend on the processing

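Of 1748 values of single genes under the alternatives, 1673 stayed on their side of the threshold, 64 lost the call and 11 gained it. Direction reversed in 0 of the cases where the gene was called in either fit. A change of direction between values not called was not counted apart and falls within the 1673. Many of these genes were picked as called genes with the smallest p, so the count does not measure how stable other genes are. It leaves out the setting with a least log2 change. A log2 change of at least 0.5 left 4 of the 10 genes called after E2F1 siRNA, 2 after E2F3 siRNA and 7 between the knockdowns. Of all genes it left 1680, 1771 and 2352 in the same order. This setting removes small changes by construction. An adjusted p under 0.01 left 3244 of all genes after E2F3 siRNA. Upper-quartile scaling left 3 of the 10 genes called after E2F3 siRNA, and in the MuvB core 3 genes after E2F1 siRNA and 2 between the knockdowns; with no filter the MuvB core had 3 after E2F1 siRNA. The causes of these scaling and filter shifts were not tested. Leaving out 1 library at a time, the MuvB core had 3 to 5 genes called after E2F1 siRNA, the 10 genes 7 to 7, 4 to 5 and 9 to 10 in the 3 comparisons, and all genes 4337 to 5276, 4243 to 5141 and 5472 to 6160.

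Deviations of same-numbered libraries from their group means correlated at -0.106 to 0.112, and those of differently numbered libraries at -0.077 to 0.069. Correlations this weak cannot show if the replicate numbers pair the samples. With a replicate block 4936, 4871 and 5982 genes were called in the 3 comparisons, and 7, 5 and 10 of the 10 genes. Among the other genes named, LIN9 after E2F1 siRNA (limma adjusted p = 0.0569) and MASTL (0.0584) and MCM2 (0.0581) after E2F3 siRNA lost their calls with it. FPKM without counts or absolute depth allow no counting error per value, and 3 libraries a group limit how small a change can be called; CDC25C, at about 10 FPKM, had one of the wider SEs.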
